A study of Mus musculus with 80 samples.

Results

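RXR-DNA binding was examined at the nuclear genes of oxidative phosphorylation in mouse liver. Membership was by name: protein-coding genes of GENCODE M21 on chromosomes 1-19 and X (mm10) with symbols beginning Nduf, Sdha to Sdhd, Uqcr, Cox4 to Cox8 or Atp5. There were 93 such genes among 21755 protein-coding gene records. They fell into 36 subunits of complex I, 8 complex I assembly factors, 4 subunits of complex II, 8 of complex III, 20 subunits and isoforms of complex IV and 17 genes of complex V. Atp5o has a further read-through record, which is described apart.

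RXR chromatin immunoprecipitation and sequencing (ChIP-Seq) libraries came from 40 livers of male C57BL6/J mice aged 5 months, 5 per group, each from a separate animal. The WT groups were given control diet (WT Control), control diet with pioglitazone (WT Pio), high-fat diet (WT HFD) or high-fat diet with pioglitazone (WT HFD-Pio) for 12 weeks, and 4 KO groups were given the same diets. KO mice carried loxP-flanked PPARγ alleles and the Alb-Cre transgene, whose albumin promoter acts in hepatocytes, so that other cell types of the liver were not targeted. The study's methods name C57BL6/J mice as the WT, and no loxP animals without Cre. Pio is a thiazolidinedione agonist of PPARγ, and PPARγ binds DNA as a heterodimer with RXR. The antibody was raised against RXRα, RXRβ and RXRγ, so the receptor form is not distinguished. The labels of KO Pio, KO HFD and KO HFD-Pio name no antibody, although the titles name RXR. They were taken as RXR ChIP.

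Oxidative phosphorylation couples the oxidation of NADH and succinate to ATP synthesis in the inner mitochondrial membrane. Complex I takes electrons from NADH and complex II takes them from succinate. Complex III passes them from ubiquinol to cytochrome c, complex IV passes them on to oxygen, and complex V, the ATP synthase, uses the resulting proton gradient to make ATP. Most subunits are encoded in the nucleus, and hepatocytes are rich in mitochondria. Several complex IV subunits have a widely used isoform and a second one largely confined to heart, skeletal muscle, lung or testis.

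The values were intervals that the authors called with MACS2 in each ChIP library against the input of the same liver, with the fold enrichment over the local background at the summit. A gene was counted in a library when an interval overlapped one of its exons or introns by at least 1 bp. Genotype went together with depth and with the calling cutoff. WT libraries kept 2.04 to 4.26 M tags and were called at a p cutoff of 0.001, and KO libraries kept 0.628 to 1.06 M and were called at a q cutoff of 0.05. WT against KO therefore cannot be told apart from depth and cutoff.

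Libraries within WT groups stood apart. MACS2 estimated the fragment length at 45 to 48 bp in 6 of the 10 Pio-treated WT libraries (WT Pio 2, 3 and 5, and WT HFD-Pio 1, 4 and 5). The estimate was 169 to 263 bp in the other 4, 183 to 292 bp in the 10 untreated WT libraries and 119 to 168 bp in KO. Numbers of genes, gained genes, classes and interval positions of treated WT are therefore also given for the 4 longer-estimate libraries alone, a choice made after the data were seen.

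Marker lists were read in the same way. Of 14 liver marker genes, 5 had no interval in any of 40 libraries, and 1 was present in at least 3 of 5 libraries in each of WT Pio (Pck1), WT HFD-Pio (Pck1) and the KO groups (Ttr). Of 12 neural marker genes, 9 were present in at least 3 of 5 libraries in every KO group, 2 in WT Pio and 2 in WT HFD-Pio. Of 8 intestinal marker genes, 3 were present in WT Pio, 3 in WT HFD-Pio and 0 in KO. Of 10 muscle marker genes, 5 were present in WT Pio, 4 in WT HFD-Pio and 3 to 5 in the KO groups. Over all protein-coding genes, presence in at least 3 of 5 libraries held for 12.8% in WT Pio, 10.1% in WT HFD-Pio and 24.5% to 29.2% in the KO groups. It held for 2.22% in WT Control and 0.515% in WT HFD, and 26.4% of all genes had no interval in any library. In WT Control and WT HFD the count was 0 for each of these lists, and the part of any of this in the results on oxidative phosphorylation genes was not tested. Pparg, the targeted gene, had an interval in 2, 4, 0 and 3 libraries of WT Control, WT Pio, WT HFD and WT HFD-Pio and in 0, 1, 0 and 0 of KO Control, KO Pio, KO HFD and KO HFD-Pio. An interval anywhere in the gene does not read the deleted exons, so this does not check the genotype.

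The letters under the intervals are shown first, because nearly all intervals of these genes lay on exons. For each complex, the gene was chosen after its values were seen. Within that gene the coding exon was picked for the number of treated WT and KO libraries with an interval on it, and long exons were not printed. The exon shown need not be the most recurrent of its complex. Exons are merged over transcripts, positions are on GRCm38/mm10 and letters run 5′ to 3′ on the coding strand. Capitals mark coding bases and lower case marks flanking intron, which is left out on a side where another transcript has exon.

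Ndufv2, coding exon 5 of 8, chr17:66087383-66087591, minus strand: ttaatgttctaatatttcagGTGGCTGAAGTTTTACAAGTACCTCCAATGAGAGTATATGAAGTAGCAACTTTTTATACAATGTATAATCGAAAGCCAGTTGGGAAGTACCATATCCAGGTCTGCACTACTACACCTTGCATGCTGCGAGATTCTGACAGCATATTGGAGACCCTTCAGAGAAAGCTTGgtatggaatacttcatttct
Sdhd, coding exon 3 of 4, chr9:50598741-50598925, minus strand: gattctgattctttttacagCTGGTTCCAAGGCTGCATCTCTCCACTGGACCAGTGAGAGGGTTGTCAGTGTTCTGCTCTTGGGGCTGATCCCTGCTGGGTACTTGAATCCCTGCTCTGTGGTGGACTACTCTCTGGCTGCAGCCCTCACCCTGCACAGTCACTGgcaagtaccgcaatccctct
Uqcrc1, coding exon 5 of 13, chr9:108944690-108944888, plus strand: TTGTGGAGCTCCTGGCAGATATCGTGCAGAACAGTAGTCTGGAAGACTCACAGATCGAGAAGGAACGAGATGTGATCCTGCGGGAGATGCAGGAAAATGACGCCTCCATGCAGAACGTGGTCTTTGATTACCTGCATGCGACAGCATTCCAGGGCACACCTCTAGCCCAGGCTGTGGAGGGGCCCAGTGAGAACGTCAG
Cox4i1, coding exon 3 of 5, chr8:120672725-120672912, plus strand: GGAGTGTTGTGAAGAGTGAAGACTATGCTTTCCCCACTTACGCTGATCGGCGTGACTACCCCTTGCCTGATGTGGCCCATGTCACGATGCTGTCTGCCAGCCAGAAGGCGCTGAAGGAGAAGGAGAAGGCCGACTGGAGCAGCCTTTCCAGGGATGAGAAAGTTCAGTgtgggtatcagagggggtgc
Atp5b, coding exon 8 of 10, chr10:128088321-128088533, plus strand: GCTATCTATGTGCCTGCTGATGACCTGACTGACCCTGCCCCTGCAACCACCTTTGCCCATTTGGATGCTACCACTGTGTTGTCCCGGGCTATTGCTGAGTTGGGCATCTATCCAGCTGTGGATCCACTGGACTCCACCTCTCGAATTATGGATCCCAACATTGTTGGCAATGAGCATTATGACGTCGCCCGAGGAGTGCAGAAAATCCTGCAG

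Ndufv2 encodes a core iron-sulfur subunit of complex I, and an interval touched the printed exon in 9 treated WT and 14 KO libraries. Sdhd encodes a membrane anchor of complex II, and its exon was touched in 7 treated WT and 7 KO libraries. Uqcrc1, a core protein of complex III, had 7 and 17. Cox4i1, the main isoform of subunit 4 of complex IV, had 9 and 20. Atp5b, the catalytic β subunit of the ATP synthase, had all 10 treated WT and all 20 KO libraries. No untreated WT library had an interval on any of these 5 exons. In Cox4i1 the 6 intervals of the short-estimate WT libraries had a median length of 72 bp and all lay within the 168 coding bases. The 3 of the longer-estimate WT libraries had a median length of 221 bp and the 20 of KO libraries one of 298 bp, and none of either lay wholly inside, so within WT the interval length here moved with the fragment estimate.

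The last coding exons of the c subunit genes are shown because intervals on those of Atp5g1 and Atp5g2, but not of Atp5g3, separated treated WT from KO libraries. Atp5g1, Atp5g2 and Atp5g3 encode the same mature c subunit of the ATP synthase ring with different import sequences.

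Atp5g1, coding exon 4 of 4, chr11:96073107-96073238, minus strand: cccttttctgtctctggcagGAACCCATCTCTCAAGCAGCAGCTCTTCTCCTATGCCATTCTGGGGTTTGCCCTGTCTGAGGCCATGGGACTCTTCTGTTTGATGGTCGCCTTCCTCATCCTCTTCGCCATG
Atp5g2, coding exon 4 of 4, chr15:102663017-102663148, minus strand: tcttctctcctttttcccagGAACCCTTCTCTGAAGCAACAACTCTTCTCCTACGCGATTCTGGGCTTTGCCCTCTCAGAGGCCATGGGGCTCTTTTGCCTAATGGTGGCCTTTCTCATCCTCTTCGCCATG
Atp5g3, coding exon 4 of 4, chr2:73908596-73908727, minus strand: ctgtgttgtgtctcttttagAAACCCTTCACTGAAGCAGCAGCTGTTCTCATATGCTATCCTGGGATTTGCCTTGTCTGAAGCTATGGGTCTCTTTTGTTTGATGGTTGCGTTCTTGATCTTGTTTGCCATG

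Over these 112 coding bases, Atp5g1 and Atp5g2 had 85.7% of positions in common, Atp5g1 and Atp5g3 had 81.2%, and Atp5g2 and Atp5g3 had 75.9%. The longest run of identical bases was 18, 11 and 8, respectively. Treated WT libraries had intervals on each of the 3 exons, in 9 of 10 libraries every time. KO libraries had them on the Atp5g3 exon in 19 of 20 and on the Atp5g1 and Atp5g2 exons in 0 of 20.

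The next exons are shown for the opposite pattern, with intervals in KO libraries and in no WT library.

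Atp5d, coding exon 1 of 4, chr10:80142466-80142626, plus strand: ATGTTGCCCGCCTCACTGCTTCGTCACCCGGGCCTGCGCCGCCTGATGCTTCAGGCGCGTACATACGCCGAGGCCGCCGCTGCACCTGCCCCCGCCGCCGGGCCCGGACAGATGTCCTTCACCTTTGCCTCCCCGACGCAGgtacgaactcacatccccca
Uqcrq, coding exon 1 of 3, chr11:53430516-53430689, minus strand: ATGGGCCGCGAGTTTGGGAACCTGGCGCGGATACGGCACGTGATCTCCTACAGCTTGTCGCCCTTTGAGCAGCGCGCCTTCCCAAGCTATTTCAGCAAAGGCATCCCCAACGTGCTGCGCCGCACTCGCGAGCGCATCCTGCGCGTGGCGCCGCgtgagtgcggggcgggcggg
Cox7b, coding exon 2 of 3, chrX:106019579-106019723, plus strand: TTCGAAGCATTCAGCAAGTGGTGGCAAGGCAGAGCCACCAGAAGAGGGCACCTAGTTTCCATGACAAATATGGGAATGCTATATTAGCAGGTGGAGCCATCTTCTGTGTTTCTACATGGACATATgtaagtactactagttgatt

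Atp5d encodes the δ subunit in the F1 part of the ATP synthase, Uqcrq a small subunit of complex III and Cox7b a small subunit of complex IV. Their exons had an interval in 16, 15 and 14 of 20 KO libraries and in 0 treated WT libraries.

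The first question was how many of these genes carried an RXR interval in each group. Untreated WT livers had almost none. In Pio-treated WT livers many were present, with ATP synthase genes such as Atp5a1, Atp5b and Atp5g3 in all 10 libraries. In KO livers, with or without Pio, 24 to 64 of the 93 genes were present per library. WT Control libraries had 0, 1, 1, 1 and 1 of the 93 genes, and WT HFD libraries had 1, 0, 0, 0 and 0. WT Pio libraries had 39, 44, 58, 12 and 45 genes, a mean of 39.6 ± 16.9 (SD, n = 5). WT HFD-Pio libraries had 46, 12, 15, 45 and 32, a mean of 30.0 ± 16.1 (SD, n = 5). Treated and untreated WT libraries thus did not overlap, and the lowest treated library had 12 genes.

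KO libraries were high in every group. KO Control had 41, 57, 64, 24 and 54 genes, and KO Pio had 62, 56, 59, 63 and 57. KO HFD had 57, 52, 61, 48 and 34, and KO HFD-Pio had 53, 50, 61, 62 and 54. The KO groups overlapped one another, with or without Pio. In mean percent of the 93 genes, KO Control had 51.6%, KO Pio 63.9%, KO HFD 54.2% and KO HFD-Pio 60.2%, beside 25.5%, 30.6%, 26.8% and 29.6% of all protein-coding genes.

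The same comparison with all genes differed in direction between treated and untreated WT livers. WT Pio had a mean of 42.6% of the oxidative phosphorylation genes beside 17.1% of all genes, and WT HFD-Pio had 32.3% beside 14.7%. WT Control had 0.860% beside 6.34%, and WT HFD had 0.215% beside 1.95%. WT Control 2 illustrates this, since its 12814 intervals touched 1 oxidative phosphorylation gene, whereas the 1883 intervals of WT Pio 4 touched 12. These genes were shorter than most, with a median gene length of 7382 bp beside 17414 bp and a median exon length of 1569 bp beside 3527 bp for all genes.

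**Figure D1:**
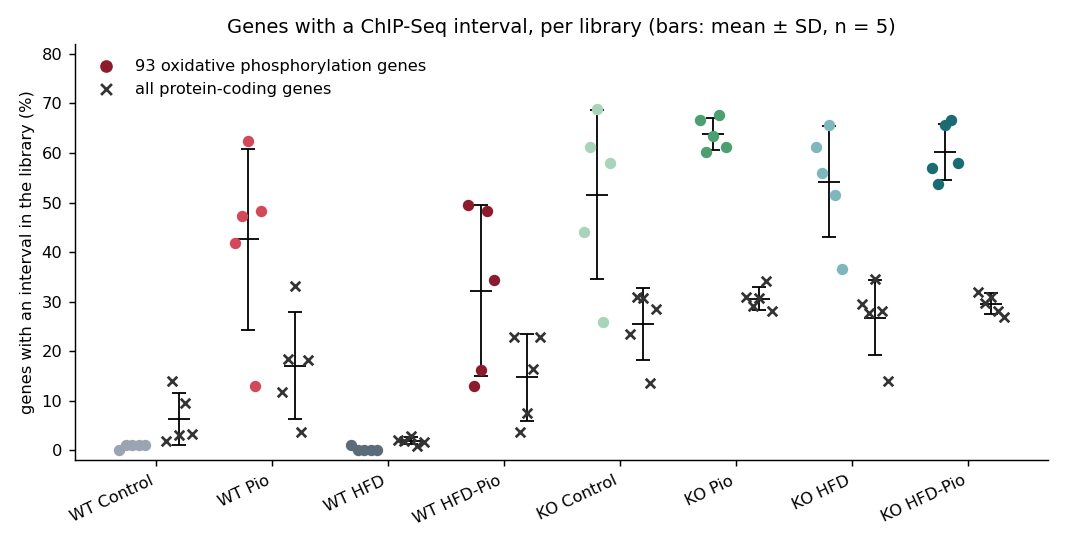
Percent of the 93 oxidative phosphorylation genes with an interval in each of the 40 libraries (circles), beside the percent of all protein-coding genes in the same library (crosses), by group, with bars for mean ± SD (n = 5). Untreated WT libraries lie at 0 to 1.08% for the oxidative phosphorylation genes, treated WT libraries at 12.9 to 62.4% and KO libraries at 25.8 to 68.8%.

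Within the treated WT groups the number of genes moved with the fragment length estimate. The 6 libraries with the short estimate had 32 to 58 of the 93 genes, and the 4 with the longer estimate (WT Pio 1 and 4, and WT HFD-Pio 2 and 3) had 12 to 39. Without the 6, WT Pio was at 39 and 12 genes and WT HFD-Pio at 12 and 15, still above every untreated WT library. Across the 4 longer-estimate libraries 40 genes were present at least once, and Atp5a1, Atp5b, Atp5g3 and Ndufa6 were present in all 4. Presence in at least 3 of the 4 held for 11 of the 93 genes (11.8%), beside 2.13% of all genes: 3 complex I subunits, 1 gene each of complexes III and IV and 6 of complex V. The part of the fragment estimate in the Pio difference was not tested.

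Over all 40 libraries, 84 of the 93 genes had an interval at least once, 61 in a treated WT library, 79 in a KO library and 5 in an untreated WT library. For these counts by type of library the share over all genes was not computed. The genes present in most libraries were Atp5a1, Atp5b and Atp5g3, with 30 each (10 of 10 treated WT, 20 of 20 KO and 0 of 10 untreated WT), then Cox4i1 and Uqcrc1 with 29. In all, 12 genes were present in all 20 KO libraries, as were 1850 of the 21755 protein-coding gene records. No interval was found in 9 genes (9.68%), beside 26.4% of all protein-coding genes. They were Cox6a2, Cox6b2, Cox7a1, Cox8b, Cox8c and Ndufa4l2, which are tissue-restricted isoforms, and Cox7c, Ndufaf6 and Ndufs5. Exact copies of exon sequence elsewhere in the genome made up 40.4% of the 49-base windows of Ndufs5 and 26.1% of those of Cox7c, and their part in the missing intervals was not tested.

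**Figure D2:**
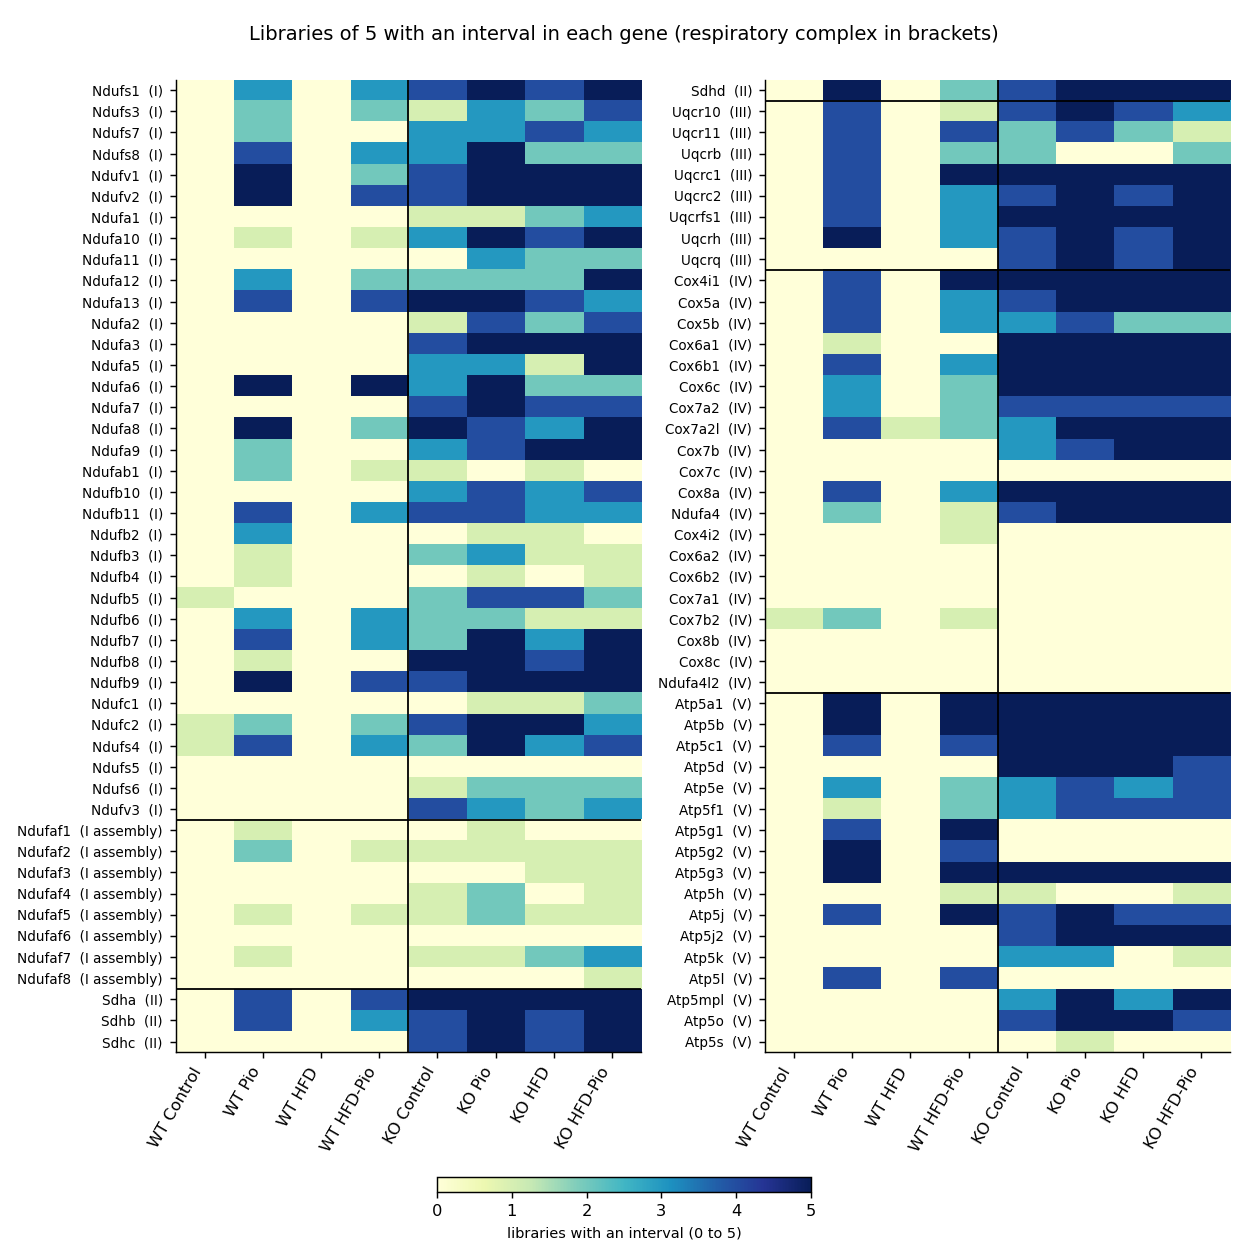
Number of libraries out of 5 with an interval, for all but 1 of the 93 genes (rows, by complex) and each of the 8 groups (columns), with the colour scale from 0 to 5. The columns of WT Control and WT HFD are nearly empty, the tissue-restricted complex IV isoforms reach at most 2 libraries in any group, and the complex I assembly factors at most 3.

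The complexes were then read by how many of their genes recurred, counted as presence in at least 3 of 5 libraries. Over all 93 genes this held for 42 in WT Pio, 31 in WT HFD-Pio, 53 in KO Control, 61 in KO Pio, 50 in KO HFD and 56 in KO HFD-Pio, and for 0 in WT Control and WT HFD. Over all protein-coding genes it held for 12.8%, 10.1%, 24.5%, 29.2%, 26% and 27.9% in the same order, and for 2.22% and 0.515% in WT Control and WT HFD.

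Complex I reached 15 of 36 subunits in WT Pio and 11 in WT HFD-Pio, and 20, 27, 19 and 24 in KO Control, KO Pio, KO HFD and KO HFD-Pio. Among its 7 core subunits, which include the carriers of the flavin and the iron-sulfur clusters, 5 recurred in WT Pio, 4 in WT HFD-Pio and 5 to 7 in the KO groups. Ndufv1, the flavin-binding subunit, had an interval in 5 WT Pio and 2 WT HFD-Pio libraries, and Ndufs7, a core subunit close to the ubiquinone site, had 2 and 0. The 8 assembly factors, which help build complex I without staying in it, hardly took part: 0 recurred in WT Pio, WT HFD-Pio, KO Control, KO Pio and KO HFD, and 1 (Ndufaf7) did in KO HFD-Pio.

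All 4 complex II genes recurred in every KO group. Sdha, the flavoprotein, was present in 4 WT Pio and 4 WT HFD-Pio libraries, Sdhb, the iron-sulfur protein, in 4 and 3, and the membrane anchor Sdhd in 5 and 2. Sdhc, the other membrane anchor, was present in 0 of 20 WT libraries and in 18 of 20 KO libraries. Of 8 complex III genes, 7 recurred in WT Pio, 5 in WT HFD-Pio and 6 or 7 in each KO group. Uqcrfs1, the Rieske iron-sulfur protein, was present in 4 WT Pio, 3 WT HFD-Pio and 20 KO libraries.

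Complex IV split by isoform. Of its 12 subunits or main isoforms, 8 recurred in WT Pio, 5 in WT HFD-Pio and 10 or 11 in each KO group, and of the 8 tissue-restricted isoforms 0 recurred in any group. Cox4i1 was present in 29 libraries and Cox4i2, the lung isoform, in 1. Cox6a1 was present in 21 and Cox6a2 in 0, Cox6b1 in 27 and the testis isoform Cox6b2 in 0, and Cox8a in 27 and both Cox8b and Cox8c in 0. Cox7a2 was present in 21, its relative Cox7a2l, a factor of supercomplexes, in 25 and the muscle isoform Cox7a1 in 0. Cox7b was present in 17, all KO, and the testis isoform Cox7b2 in 4, all WT, of which 1 was WT Control. The Cox7b2 intervals touched no exon and lay in introns of a gene of 105382 bp. Ndufa4 was present in 22 and Ndufa4l2 in 0. The tissue-restricted isoforms Cox6a2, Cox6b2, Cox7a1, Cox8b and Cox8c are also among the shortest of the genes, at 953 to 1935 bp.

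In complex V, 9 of 17 genes recurred in WT Pio, 8 in WT HFD-Pio, 12 in KO Control and KO Pio, and 11 in KO HFD and KO HFD-Pio. All 5 genes of the catalytic F1 part recurred in every KO group, 4 did in WT Pio and 3 in WT HFD-Pio. Atp5s, a coupling factor associated with the enzyme, was present in 1 library. The read-through record of Atp5o, which spans 242585 bp beside 6474 bp for Atp5o itself, was present in 3, 3, 1 and 2 libraries of WT Control, WT Pio, WT HFD and WT HFD-Pio and in 4 or 5 in each KO group. It is not counted in any total here.

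**Figure D3:**
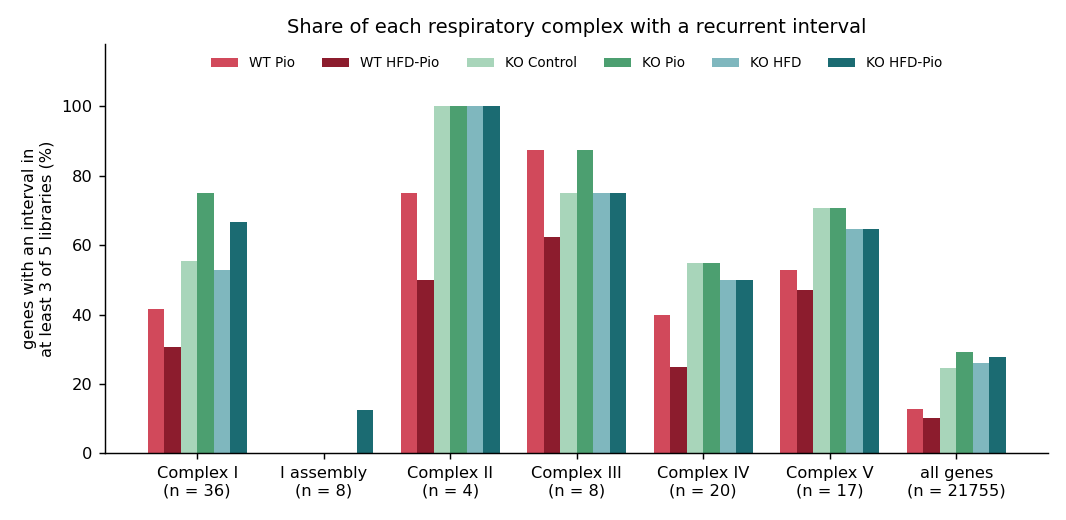
Percent of the genes of each complex with an interval in at least 3 of 5 libraries, for WT Pio, WT HFD-Pio and the 4 KO groups, with the complex I assembly factors shown apart, all protein-coding genes for comparison and n the number of genes. WT Control and WT HFD are not drawn because each complex is at 0% there, and complex II reaches 100% in the 4 KO groups.

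The next question was whether Pio changed which genes carried an interval. On control diet 41 of the 93 genes went from 0 of 5 WT Control libraries to at least 3 of 5 WT Pio libraries, and on HFD 31 did between WT HFD and WT HFD-Pio. The background was 7.56% of all protein-coding genes on control diet and 7.73% on HFD, beside 44.1% and 33.3% of the oxidative phosphorylation genes. The opposite change, from at least 3 libraries to 0, was seen in 0 of the 93 genes on either diet, with backgrounds of 0.0644% and 0.0046%. In the longer-estimate libraries alone, 12 genes (12.9%) were present in both WT Pio libraries and in no WT Control library, beside 1.42% of all genes, and 8 (8.60%) in both WT HFD-Pio and no WT HFD library, beside 1.08%. Of all 93 genes, 34 had an interval in 0 of 5 WT Pio libraries and 41 in 0 of 5 WT HFD-Pio libraries. Of all 21755 protein-coding gene records, 12745 and 13437 had none in the same groups.

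On control diet, 12 genes went from 0 of 5 to 5 of 5 libraries, among them Ndufa6, Atp5g3, Atp5b, Ndufv2, Atp5a1, Ndufb9, Uqcrh, Atp5g2, Ndufv1, Ndufa8 and Sdhd, and the background was 1.26%. Ndufa6, an accessory subunit of complex I, had a fold enrichment of 12.2, 18.6, 37.3, 5.43 and 20.6 in WT Pio libraries 1 to 5, with no interval in WT Control. Atp5b had 12.7, 21.4, 29.8, 4.64 and 15. Atp5a1, the α subunit of the ATP synthase, had 10.5, 14.6, 19.98, 2.33 and 22.7. In each of these genes the lowest value was that of WT Pio 4, the library with 1883 intervals.

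Ndufv2 had 11.6, 14.8, 30.1, 4.95 and 17.8, and Ndufb9, an accessory subunit, had 10.9, 16.6, 15.3, 3.96 and 13.1. Uqcrh, the hinge protein of complex III, had 15.2, 6.97, 21.9, 3.97 and 11.1. WT Pio 4 was again the lowest of the 5 each time. Ndufb5, an accessory subunit of complex I, had an interval in 1 WT Control library and in 0 WT Pio libraries, and no other of the 93 genes had fewer libraries in WT Pio than in WT Control. Without any 1 of the 10 libraries, 34 to 42 genes were gained on control diet.

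On HFD, 8 genes went from 0 of 5 to 5 of 5: Atp5b, Atp5g3, Ndufa6, Atp5a1, Atp5g1, Atp5j, Uqcrc1 and Cox4i1. The background was 0.892%. Atp5b had a fold enrichment of 29.4, 8.64, 6.14, 21.7 and 14.6 in WT HFD-Pio libraries 1 to 5. Atp5j, the coupling factor 6 of the ATP synthase stalk, had 16.6, 4.65, 4.60, 22.9 and 6.44. Uqcrc1 had 19.8, 6.98, 4.23, 13.4 and 6.30. Libraries 2 and 3, which had the longer fragment estimate, held the lowest values of Atp5b and Atp5j, and library 3 the lowest of Uqcrc1. The HFD count moved when a short-estimate library was left out. Of the 93 genes, 16 were gained without WT HFD-Pio 1, 16 without WT HFD-Pio 4 and 18 without WT HFD-Pio 5, in place of 31. At least 3 of the remaining libraries were still asked, which is a stricter limit than 3 of 5. The share over all genes was not computed at these settings. With a −log10 q of at least 5 asked of each interval, 25 genes were gained on control diet and 17 on HFD, beside 3.94% and 1.46% of all genes.

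Library numbers were tested gene by gene with Fisher's exact test (two-sided) and Benjamini-Hochberg adjustment over all genes tested. No gene of any kind passed 0.05 in the 4 Pio contrasts. For 5 against 5 libraries p cannot fall below 0.00794, and the lowest adjusted values were 0.113 for WT Pio, 0.105 for WT HFD-Pio and 1 for both KO groups. Over all genes, 1125 and 616 had an unadjusted p below 0.05 in WT and 104 and 44 in KO. This level took 34 of the 44 oxidative phosphorylation genes tested on control diet and 16 of 32 on HFD, all with more libraries in the Pio group. The backgrounds were 28.8% and 24.0% of all genes tested. Genes enter this test through the group where they are present, so these counts describe the genes that passed that filter.

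With intervals on exons alone, 42 of the 93 genes were gained on control diet and 30 on HFD, beside backgrounds of 6.38% and 3.96%. In the longer-estimate libraries alone, 11 and 8 were, beside 1.20% and 0.639%. On exons the Fisher test covered 1469 genes on control diet and passed for 11 of 43 oxidative phosphorylation genes, each at an adjusted p of 0.0478 by Fisher's exact test, beside a background of 16.6%. As before, genes entered through the group where they were present, and the pass depends on how many genes that filter let in. Among them were Atp5a1, Atp5b, Atp5g2, Atp5g3, Ndufa6, Ndufa8, Ndufb9, Ndufv1, Ndufv2 and Sdhd, each present on exons in 5 of 5 WT Pio and 0 of 5 WT Control libraries.

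In KO livers few of these genes went from 0 to at least 3 libraries, or the reverse, with Pio. On control diet 1 gene, Ndufa11, an accessory subunit of complex I, went from 0 of 5 to 3 of 5 libraries, beside a background of 0.818%, and on HFD 0 did, beside 0.478%. The opposite change was seen in 0 genes in both, with backgrounds of 0.188% and 0.299%. Of 66 genes tested on control diet, 42 had more libraries in KO Pio, 2 fewer and 22 the same. On HFD, 64 were tested, with 23 more in KO HFD-Pio, 8 fewer and 33 the same. Directions over all genes were not computed for these contrasts. KO Control 4, with 7626 intervals, had the shortest list of the KO libraries, and its part in these directions was not tested. Ndufa2, Ndufb7 and Ndufs4, further accessory subunits, had an interval in 1, 2 and 2 libraries of KO Control and in 4, 5 and 5 of KO Pio. Uqcrb, a small complex III subunit, had 2 and 0. On HFD, Ndufa12 had 2 in KO HFD and 5 in KO HFD-Pio, and Ndufc2 and Ndufb5 had 5 and 4 in KO HFD and 3 and 2 in KO HFD-Pio. None of these passed the Fisher test. An unadjusted p below 0.05 was reached by 0 of 66 genes tested on control diet (background 1.34%) and by 1 of 64 on HFD (background 0.567%). The exception was Ndufa5, present in 1 KO HFD and 5 KO HFD-Pio libraries (Fisher's exact test, unadjusted p = 0.0476, adjusted p = 1).

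Fold enrichment could be compared in genes with an interval in all 10 libraries of a contrast. In WT this left 29 genes on control diet and 15 on HFD, none of them oxidative phosphorylation genes. In KO it left 15 oxidative phosphorylation genes of 2207 on control diet and 23 of 2394 on HFD, among them Atp5a1, Atp5b, Atp5g3, Cox4i1, Cox6a1, Cox8a, Sdha and Uqcrc1. In limma, 0 of the 15 and 0 of the 23 were called at an adjusted p below 0.05, with backgrounds of 0.589% and 0% of all genes tested, and 1 gene in each contrast had an unadjusted p below 0.05, beside 142 and 100 of all genes tested. The median log2 difference with Pio was -0.01 over the 15 genes and -0.07 over the 23, beside 0.02 and -0.03 over all genes tested.

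On control diet the largest difference was that of Sdha, at 0.44 on the log2 scale (SE 0.19, limma adjusted p = 0.711). Its values were 3.78, 4.72, 4.69, 5.49 and 3.78 in KO Control and 5.89, 6.6, 5.62, 11.1 and 4.50 in KO Pio, which overlapped. On HFD the largest was that of Sdhd, at 0.54 (SE 0.17, limma adjusted p = 0.980), with values of 3.78, 2.88, 4.65, 4.66 and 4.63 in KO HFD and 3.75, 5.66, 5.72, 7.6 and 6.65 in KO HFD-Pio, which overlapped too. The effect of Pio was also compared between diets in KO with an interaction term, and 0 of 12 oxidative phosphorylation genes were called, beside a background of 0% of 1850 genes and a smallest limma adjusted p of 0.956. At an unadjusted p below 0.05 this interaction took 80 genes and none of the 12. In WT the difference between diets in the effect of Pio on fold enrichment was not tested, since no oxidative phosphorylation gene had an interval in all libraries.

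HFD groups were compared with the control-diet groups of the same genotype and Pio treatment. Between WT HFD-Pio and WT Pio, 5 of 49 genes tested (10.2%) had more libraries on HFD and 31 (63.3%) fewer, beside 25.5% and 49% of all 4990 genes tested. Between KO HFD and KO Control 24 of 65 (36.9%) had more and 12 (18.5%) fewer, beside 31.5% and 22.5% of 7422 genes. Between KO HFD-Pio and KO Pio 9 of 69 (13%) had more and 20 (29.0%) fewer, beside 19.8% and 29.1% of 8097. No gene of any kind passed the adjusted Fisher test in the 4 diet contrasts, and the counts at an unadjusted p below 0.05 were 31, 10, 26 and 78 genes, with 0 oxidative phosphorylation genes among them. Between WT HFD and WT Control 0 of these genes had enough intervals to be tested.

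WT and KO libraries were compared gene by gene, with depth and calling cutoff confounded with genotype. Without Pio, all oxidative phosphorylation genes that differed had fewer WT libraries: 16 between WT Control and KO Control (Fisher's exact test, adjusted p = 0.0296, background 26.7%) and 25 between WT HFD and KO HFD (adjusted p = 0.0201 by Fisher's exact test, background 39.3%). They include Atp5a1, Atp5b, Cox4i1, Uqcrc1 and Sdha. The share of the tested oxidative phosphorylation genes was 16 of 55 and 25 of 50. All 55 and all 50 had fewer WT libraries. With 0 of the 93 genes in at least 3 of 5 WT Control or WT HFD libraries, they entered this test through KO. Their direction was therefore fixed by the filter in advance and is not a result.

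With Pio, 9 genes differed on control diet and 11 on HFD, of 70 and 65 tested. Between WT Pio and KO Pio, 8 genes had fewer WT libraries (Fisher's exact test, adjusted p = 0.0460, background 16.6%): Atp5d, Atp5j2, Atp5mpl, Atp5o, Ndufa3, Ndufa7, Sdhc and Uqcrq. Atp5g2 had more (5 WT Pio, 0 KO Pio), where the background was 0.719%. Between WT HFD-Pio and KO HFD-Pio, 10 had fewer (Fisher's exact test, adjusted p = 0.0462, background 16.8%): Atp5j2, Atp5mpl, Cox6a1, Cox7b, Ndufa3, Ndufa5, Ndufa9, Ndufb8, Sdhc and Uqcrq. Atp5g1 had more (5 WT HFD-Pio, 0 KO HFD-Pio), where the background was 0.398%. Each gene called was present in 5 of 5 libraries of 1 genotype and 0 of 5 of the other. It thus entered the test through that genotype alone, and its direction is not a result. The 8 of 70 and 10 of 65 genes with fewer WT libraries also lay below their backgrounds, so they do not set these genes apart. These calls ended for the Control, Pio and HFD-Pio pairs when every gene with an interval in at least 1 of 10 libraries was tested.

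Over all libraries the genes were sorted into 3 classes. In 39 genes (41.9%) an interval was present in at least 3 of 10 treated WT and at least 10 of 20 KO libraries, beside 12.2% of all protein-coding genes. In 13 (14%) it was present in at least 10 KO and in 0 of 20 WT libraries, beside 6.27%: Atp5d, Atp5j2, Atp5mpl, Atp5o, Cox7b, Ndufa2, Ndufa3, Ndufa5, Ndufa7, Ndufb10, Ndufv3, Sdhc and Uqcrq. In 4 (4.30%) it was present in at least 3 treated WT and in 0 of 20 KO libraries, beside 2.68%: Atp5g1, Atp5g2, Atp5l and Cox7b2. In Cox7b2 the intervals lay in introns alone, and 1 WT Control library had an interval too. With the 4 longer-estimate libraries as the treated WT libraries and at least 2 of 4 asked, the 3 classes held 19, 22 and 3 genes (20.4%, 23.7% and 3.23%), beside 3.54%, 13.5% and 0.473% of all genes.

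**Figure D4:**
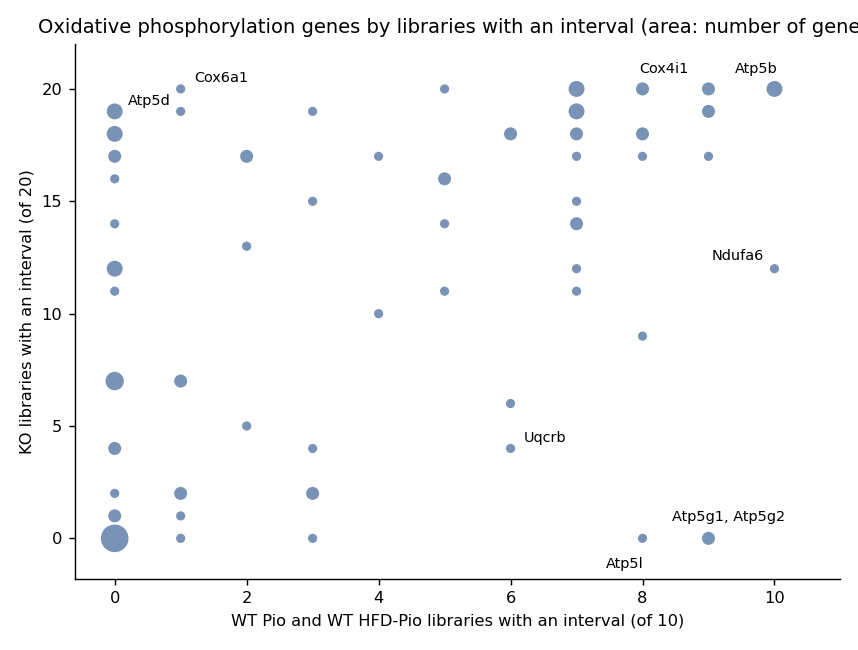
Number of the 10 treated WT libraries with an interval in a gene (horizontal axis) against the number of the 20 KO libraries (vertical axis), with point area in proportion to the number of genes at that position. Atp5g1, Atp5g2 and Atp5l lie at 8 or 9 treated WT and 0 KO libraries, Atp5d, Atp5j2, Ndufa3, Sdhc and Uqcrq at 0 treated WT and 18 or 19 KO libraries, and Atp5a1, Atp5b and Atp5g3 in the corner at 10 and 20.

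Of the genes seen in WT alone, 3 belong to the Fo part of the ATP synthase. Atp5g1 had 10.5, 16.8, 14.7 and 6.31 in WT Pio 1, 2, 3 and 5 and no interval in WT Pio 4, and 22.4, 4.65, 6.10, 19 and 6.30 in WT HFD-Pio. Atp5g2 had 10.9, 10.6, 19.1, 3.38 and 12.1 in WT Pio, and 21.2, 2.99, 14.3 and 7.56 in WT HFD-Pio 1, 2, 4 and 5. Atp5l, the g subunit of the ATP synthase, had 3.09, 12.2, 14.6 and 12.2 in WT Pio 1, 2, 3 and 5. Each of these 3 genes was present in all 6 libraries with the short fragment estimate and in 3, 3 and 2 of the 4 with the longer one. Atp5g3, in which no 49-base window had an exact copy, was present in both genotypes.

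Exact copies elsewhere in the genome made up 26.3% of the 49-base exon windows of Atp5g1, 31% of those of Atp5g2 and 10.4% of those of Atp5l. They made up 0% of those of Cox7b2, whose intervals touched no exon. The median was 0.227% over the 39 genes seen in both genotypes and 0.652% over the 13 seen in KO alone. Cox7a2l, with 45%, was present in 18 KO libraries, and Cox8a, with 20.6%, in 20. How the aligned reads of such copies were placed is not given in the sources used here, and the part of copies in the WT and KO difference was not tested.

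Strength differed among the genes as well as presence. In KO, where 12 genes were present in all 20 libraries, the highest fold enrichment was in Atp5b, with a lowest, median and highest value of 15.6, 18.2 and 23.9. Atp5a1 had 10.2, 15 and 20.4, Cox6a1 7.76, 11.6 and 14.6, Cox4i1 6.25, 10.6 and 14.3, and Cox8a 5.50, 10.3 and 17.4. Every value of Atp5b was above every value of Cox4i1 and Cox6a1, and its range overlapped those of Atp5a1 and Cox8a. Atp5g3 had 7.31, 9.28 and 16.3, a range that also overlapped that of Atp5b, although Atp5b was higher than Atp5g3 within every KO library. Atp5d, present in 19, had 4.16, 8.67 and 12.1.

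In treated WT, Ndufa6 had a lowest, median and highest value of 3.88, 15.4 and 37.3 over 10 libraries, Atp5g3 5.75, 15.7 and 32, and Atp5b 4.64, 14.8 and 29.8. Cox6b1, a subunit at the outer face of complex IV, had 7.64, 16.7 and 27.3 over 7 libraries. These ranges overlapped. They pool libraries of unlike strength, and Cox6b1 was present in 1 of the 4 longer-estimate libraries, so no ranking is drawn from them. The genes were not compared within each treated WT library. Ndufa6 in KO had 3.63, 4.43 and 6.48 over 12 libraries, and the WT Pio mean of 18.8 ± 11.9 (SD, n = 5) stood beside a KO Pio mean of 5.11 ± 1.3 (SD, n = 5). For Atp5b the means were 16.7 ± 9.45 and 19.1 ± 3.29 (SD, n = 5 each). Fold enrichment was computed against backgrounds of different depth in the genotypes, so these values are set side by side without a test.

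**Figure D5:**
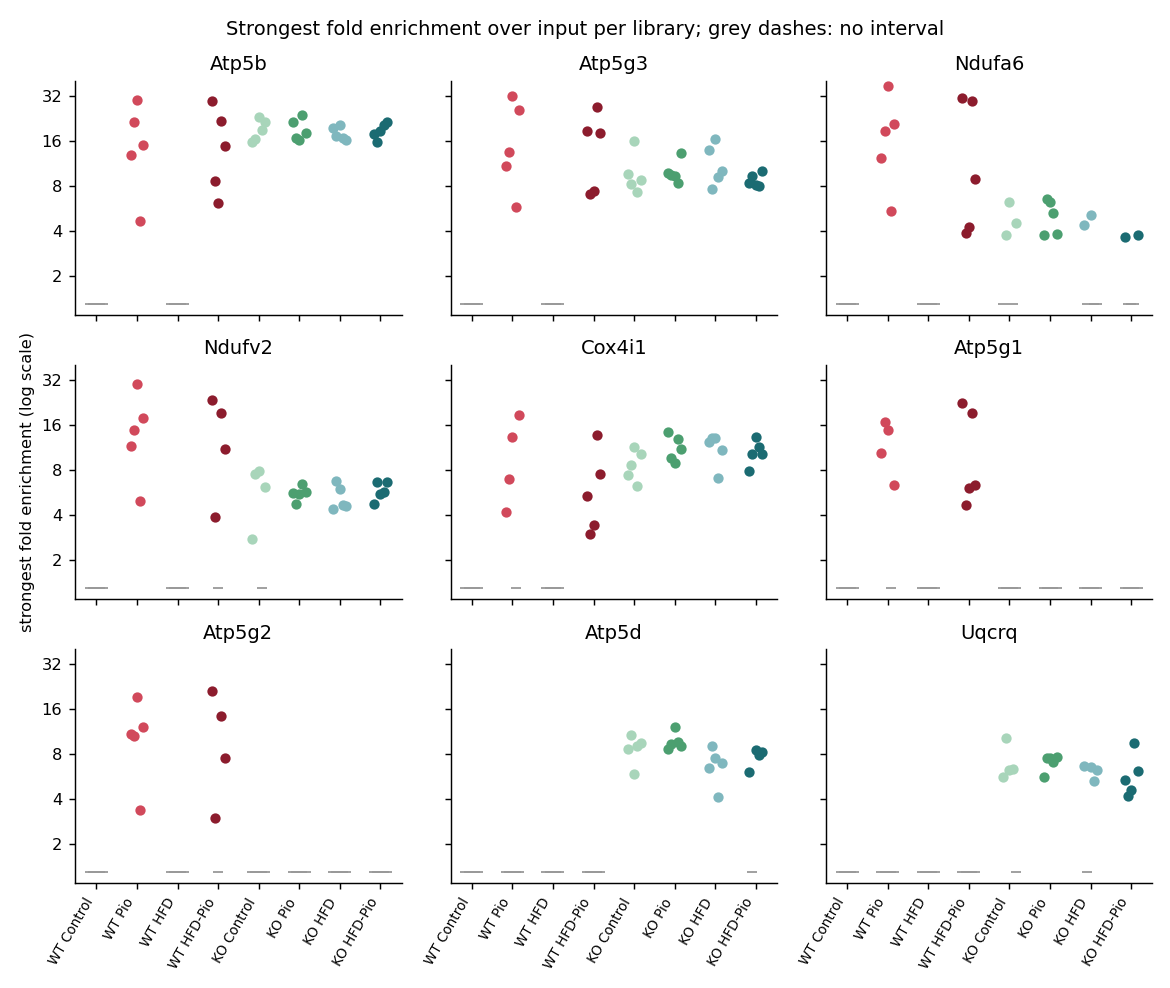
Fold enrichment (log2 axis) of the strongest interval in each library for 9 genes (Atp5b, Atp5g3, Ndufa6, Ndufv2, Cox4i1, Atp5g1, Atp5g2, Atp5d and Uqcrq), by group, with 1 point per library and a grey dash where a library had no interval. Atp5b spans 4.64 to 29.8 in treated WT and 15.6 to 23.9 in KO, and Atp5d and Uqcrq are present in KO groups alone.

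The intervals of these genes shared a position within the gene. In treated WT, 732 intervals lay in 61 of the genes, and 88.7% of their summits fell in coding exons, 4.64% in untranslated exons and 6.42% in introns. An exon was overlapped by 95.8% of them, beside 46.6% of all genic intervals of the same libraries. In KO, 2411 intervals lay in 79 genes, with 72.8% of summits in coding exons, 16.2% in untranslated exons and 10.9% in introns, and 98.3% overlapped an exon beside 91.3% of all genic intervals. In the 4 longer-estimate libraries alone, 134 intervals lay in 40 of the genes, with 76.9% of summits in coding exons, 8.96% in untranslated exons and 13.4% in introns, and 97.8% overlapped an exon beside 47.7% of all genic intervals. Of the 5 intervals of untreated WT libraries, 1 overlapped an exon.

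Few of the intervals counted in these genes had their summit at the transcription start. Intervals lying wholly upstream of a gene were not counted, since an overlap with an exon or intron was required. The upstream part of the window was therefore largely out of reach, most of all for short intervals. The shares below do not describe binding upstream of these genes. The window from 250 bp upstream to 50 bp downstream of the gene start held the summit of 0.546% of the treated WT intervals, in 2 genes, and of 2.49% of the KO intervals, in 20 genes. Within treated WT it held 4 of the 134 summits of the longer-estimate libraries and 0 of the 598 of the short-estimate ones. The pooled treated WT share therefore depended on the fragment estimate. The median length was 77 bp in treated WT, beside 48 bp over all genic intervals, and 191 bp in KO, beside 181 bp. It was 293.5 bp in the 4 longer-estimate WT libraries, beside 217 bp, and 68 bp in the 6 others, beside 48 bp. The median interval had 100% of its bases in exons in the short-estimate libraries, 70.9% in the longer-estimate ones and 77.4% in KO.

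Several exons of a gene were touched at once. In Atp5b, 59 treated WT intervals fell on 7 of its 9 merged exons, with up to 7 exons in a library, and 154 KO intervals fell on all 9. In Atp5a1, 36 treated WT intervals fell on 6 of 11 merged exons and 159 KO intervals on all 11. Cox4i1 had all 9 treated WT intervals on 1 exon and 66 KO intervals on 5 of 6. Among 50 genes with exon intervals in both genotypes, 47 had at least 1 exon in common and 24 had the same leading exon. Of 140 exons touched in treated WT and 301 touched in KO, 119 were common, which is 85.0% of the WT and 39.5% of the KO exons. The longer-estimate WT libraries touched 83 exons, and 74 of these (89.2%) were touched in KO. All the oxidative phosphorylation genes together had 520 merged exons, of which KO libraries touched the 301. Part of either overlap can therefore arise from the breadth of KO intervals alone. The share expected from that breadth was not computed, so these percentages do not show a specific sharing of exons.

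Sites for the receptor were looked for in the 101 bp centred on each summit, on both strands. The hexamer AGGTCA, the core bound by RXR and its partners, was present at 6.28% of the 732 treated WT intervals and 6.06% of the 2411 KO intervals, beside 4.98% and 6.68% of all genic intervals, and at 5.97% of the 134 intervals of the longer-estimate WT libraries, beside 5.10%. The direct repeat of that hexamer with 1 base of any kind between the copies (DR1), the element of PPARγ with RXR, contains the hexamer too and was present at 0 of 732 and 0 of 2411, beside 9 of 63143 and 65 of 398170 for all genic intervals. Of the exons printed above, that of Atp5b held 1 AGGTCA on the opposite strand. These are exact matches, and near matches were not counted.

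Some intervals could belong to a neighbour. Of 3148 intervals in the 93 genes over all libraries, 94 (2.99%) also overlapped an exon of another protein-coding gene, in 15 genes. Ndufb9 shared an exon with Gm49356 in 22 libraries, Uqcrc2 with Pdzd9 in 19 and Ndufb8 with Gm20538 in 13. The files give no strand for an interval, so its gene cannot be told apart there.

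Genes that work beside the respiratory complexes were read for comparison. Of 14 genes of the tricarboxylic acid cycle, which feeds NADH and succinate to complexes I and II, 12 were present in at least 3 of 5 libraries in WT Pio, 7 in WT HFD-Pio and 10 to 12 in the KO groups, and 9 were gained on control diet and 7 on HFD. Mdh2 (malate dehydrogenase) was present in 27 libraries. Of 41 assembly factors and electron carriers outside the symbol rule, 11 were present in WT Pio, 7 in WT HFD-Pio and 5 to 9 in the KO groups. Over all protein-coding genes the shares were 12.8%, 10.1% and 24.5% to 29.2%, and 7.56% and 7.73% were gained on control diet and HFD. The assembly factors and electron carriers thus lay below the share over all genes in every KO group. Cyc1, the cytochrome c1 subunit of complex III, was present in 25 libraries, and Atpif1, the inhibitor of the ATP synthase, was present in 0 WT and 20 KO libraries.

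Of 10 regulators of nuclear mitochondrial genes, 2 were present in at least 3 of 5 libraries in WT Pio (Ppargc1a, a coactivator, and Yy1, a transcription factor), 0 in WT HFD-Pio and 1 to 5 in the KO groups. The shares over all protein-coding genes were again 12.8%, 10.1% and 24.5% to 29.2%. Of 7 genes whose hepatic expression is known to be regulated by PPARγ, used as exemplars in the study, 2 (Cav1 and Cd36) were present in WT Pio, 0 in WT HFD-Pio and 0 or 1 in the KO groups. No exon or intron of 4 of them had an interval in any library, as in 26.4% of all genes. Intervals upstream or downstream of a gene were not counted, so binding there was not assessed.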

How the data were processed

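RXR ChIP-Seq libraries of 40 mouse livers, 8 groups of 5, were analysed, each with a matched input of the same liver whose reads were not analysed here. The authors aligned single reads to mm10 with Novoalign and called peaks in each library against its input with MACS2 2.1.1.20160309. The version, cutoffs, tag numbers and fragment estimates were read from the file headers. The deposited lists hold, per interval, the pileup signal at the summit, the fold enrichment over the local background, and the −log10 p and −log10 q of the authors' peak caller. They hold no reads per site, so the count model of the study could not be repeated. Values of some single genes are not reported here. A second copy of each list without headers was not used.

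An interval was assigned to a gene of GENCODE M21 when it overlapped an exon or intron by at least 1 bp (bedtools 2.31.1). The limit of 3 of 5 libraries follows the study, which asked for a peak in at least 3 replicates. Fisher's exact test covered genes with an interval in at least 3 of 10 libraries, adjusted by Benjamini-Hochberg. limma 3.58.1 (R 4.3.3) with trend was fitted to log2 of the strongest fold enrichment per gene, centred on each library's median, over genes with an interval in all libraries compared, with no replicate block. Scripts ran in Python 3.11.15 with pandas 2.3.3, numpy 2.4.6 and scipy 1.17.1, and were tested on simulated data. Exon sequence and copies came from the RefSeq copy of GRCm38.

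The genes named were those with the largest differences in library number in each Pio contrast, those in most or no libraries, the core catalytic subunits, the isoform pairs and up to 3 genes of other lists, together with genes of short lists, of the printed exons and of the marker lists, which were chosen after their values were seen. The members, the lists and the rule were chosen with earlier results of these data known. Alternatives covered exon intervals alone, an overlap of 50 bp, a common q of 0.05, a −log10 q of at least 5, lists shortened to the shortest, the limit of 4 of 5 libraries, the genes tested, no centring, a replicate block and leaving out each library. The values for treated WT libraries of longer fragment estimate alone were added after the data were seen.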

Additional observations from a re-analysis of the deposited data

Results flagged for a closer look

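Of 82 groups of 5 libraries examined for a library far from the others, 5 were flagged, and chance gives about 1 in 20. WT Control 1 had 0 of the 93 oxidative phosphorylation genes with an interval, where the other 4 libraries had 1 each. WT HFD 1 had 1 such gene, where the other 4 had 0. In both groups the other 4 libraries were tied, so a difference of 1 gene was enough for a flag. Neither library is thereby shown to lie far from the others. The fold enrichment of Atp5g3, a c subunit gene of the ATP synthase, was 15.8 in KO Control 3 and 7.31 to 9.54 in the other KO Control libraries. That of Atp5d was 12.1 in KO Pio 3 and 8.70 to 9.63 in the other KO Pio libraries. The median fold enrichment over the oxidative phosphorylation genes with an interval was 4.69 in KO HFD-Pio 1 and 5.53 to 5.68 in the other KO HFD-Pio libraries.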

How the results depend on the processing

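With a −log10 q of at least 5, the genes in at least 3 of 5 libraries numbered 25 in WT Pio, 17 in WT HFD-Pio, 21 in KO Control, 34 in KO Pio, 32 in KO HFD and 32 in KO HFD-Pio, and Pio gained 25 and 17 in WT and 2 and 1 in KO, beside 3.94%, 1.46%, 0.588% and 0.239% of all genes. With each list cut to its strongest intervals, as many as the shortest list of the genotype or contrast, they numbered 11, 11, 27 and 39 in WT Pio, WT HFD-Pio, KO Control and KO Pio and 34 in KO HFD-Pio, and 16 and 11 were gained in WT and 0 and 3 in KO, beside 1.52%, 0.855%, 0.276% and 0.326% of all genes. With at least 4 of 5 libraries asked, WT HFD-Pio had 16 genes, of which 16 were gained, and KO Pio gained 0. With the longer fragment estimate alone WT HFD-Pio had a mean of 13.5 genes, 12 and 8 genes were present in both libraries of WT Pio and of WT HFD-Pio, and 12 and 8 were gained, a setting added after the data were seen. Fisher's exact test passed 11 genes in WT Pio on exons alone, where fewer genes were tested. It passed 0 between WT and KO for Control, Pio and HFD-Pio where genes with an interval in at least 1 of 10 libraries were tested, since more genes entered the adjustment. For the other settings that moved a value the cause was not tested.

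Leaving out 1 library at a time gave 16 to 30 genes in at least 3 of the remaining libraries in WT HFD-Pio, and 16 to 31 gained there. Pio gained 0 to 2 in KO on control diet and 0 to 1 on HFD.

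Replicate numbers are shared between groups, but same-numbered libraries did not deviate together (correlations of −0.041 to 0.040 over 2207 and 2394 genes in KO), so the numbers name libraries and do not pair them. With a replicate block, limma called 0 of the 15 and 0 of the 23 oxidative phosphorylation genes tested in the KO Pio contrasts, as without it, and in WT none could be tested. Over all genes it called 3, 0, 16 and 0 in place of 5, 0, 13 and 0. Where −log10 q had to reach 5, no gene was left for limma in WT. Fold enrichment and q depend on depth, which was 0.628 to 1.06 M tags in KO and 2.04 to 4.26 M in WT.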
